A study of Oryza sativa with 36 samples.

Results

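The rice lines NIL-MP3 and Takanari were compared in the tissues labelled AM4 and AM5, the last of the labels AM1 to AM5. AM is read here as axillary meristem, and the numbers as a series. The libraries were chosen by their labels alone, 6 of NIL-MP3 and 6 of Takanari, 12 of the 35 libraries with counts. NIL-MP3 AM4 comprised libraries 2, 8 and 14, NIL-MP3 AM5 libraries 1, 7 and 13, Takanari AM4 libraries 2, 8 and 14, and Takanari AM5 libraries 1, 7 and 13. The labels give the line, the tissue code and the library number. They state neither what the AM codes stand for, nor plant age, nor how many plants or meristems went into a library, nor the chromosome segment that sets the lines apart. Both lines were raised under the same short days, with 10 h of light and 14 h of dark, the light hours at 27 °C and the dark hours at 25 °C. Library numbers run in 3 sets within each line, 1 to 6, 7 to 12 and 13 to 18. Each set gave 1 AM4 and 1 AM5 library, so the comparison rests on 3 sets against 3 and not on 12 independent samples.

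Axillary meristems form in the leaf axils of a grass shoot and grow into buds, which either extend as tillers or stay arrested. Takanari is a high-yielding indica cultivar, and a near-isogenic line carries a short donor segment in an otherwise recurrent genome. As background that is not in the labels, the MP3 locus affects panicle number, lies on chromosome 3 and was traced to a natural allele of the rice TB1 gene. TB1 encodes a TCP transcription factor that restrains the outgrowth of tiller buds. The counts carry 55801 locus identifiers without gene names, and 0 of them could be paired with a name. TB1 itself, other named genes, gene lists and the markers of meristem, leaf or vascular tissue were therefore not analysed here, and each locus below is given by its identifier and the chromosome written in it.

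The libraries were small, 77362 to 179993 molecules each, and the median was lower for AM5 than for AM4 in both lines. It was 113440 in NIL-MP3 AM5 and 162406 in NIL-MP3 AM4, and 111449 in Takanari AM5 and 164536 in Takanari AM4. Both AM5 libraries numbered 1 were the shallowest of their line, at 79922 in NIL-MP3 and 77362 in Takanari. In a principal component analysis of 1000 loci they also lay apart on component 1 (23.6% of the variance), at 17.5 and 24.4, where the other 10 libraries lay between -13.6 and 4.18. Levels below are CPM, counts scaled to a common total over the 4079 loci that passed the filter on low counts, after TMM scaling.

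The main comparison asked which loci differed between NIL-MP3 and Takanari over AM4 and AM5 together. In limma with the set as a random effect, 3 of 4079 loci (0.0735%) passed an adjusted p of 0.05. All 3 were lower in NIL-MP3, by about 0.9 to 1.6 on the log2 scale, and none (0) was higher. They are LOC_Os01g57968, LOC_Os05g22840 and LOC_Os04g16722, on chromosomes 1, 5 and 4. Their levels moved together in part. At all 3, Takanari AM4 library 8 was the highest of Takanari and NIL-MP3 AM5 library 13 the lowest of NIL-MP3. The highest NIL-MP3 library was AM5 library 7 at LOC_Os01g57968 and LOC_Os04g16722, but AM4 library 2 at LOC_Os05g22840. Whether they are 3 separate differences or 1 shared signal was not tested. With no adjustment 267 loci (6.55%) had a p below 0.05, of which 132 were higher and 135 lower in NIL-MP3. Without both AM5 libraries numbered 1, 5 loci passed, and the log2 differences were -0.85 for LOC_Os01g57968, -1.72 for LOC_Os05g22840 and -0.95 for LOC_Os04g16722, which all passed (adjusted p = 8.43e-05, 1.61e-04 and 8.85e-04 in limma), while LOC_Os02g55060 also passed at 0.89 (adjusted p = 0.012). The counts came from bulk tissue, in which fewer cells of a type and less RNA per cell cannot be told apart.

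LOC_Os01g57968 on chromosome 1 had 1785, 1823 and 1757 CPM in the NIL-MP3 AM4 libraries 2, 8 and 14, and 1786, 2385 and 1430 CPM in the NIL-MP3 AM5 libraries 1, 7 and 13. The Takanari libraries had 2714, 3843 and 3226 CPM in AM4 and 3383, 3818 and 2833 CPM in AM5, in the same order of numbers. Every NIL-MP3 library lay below every Takanari library, and the 3 NIL-MP3 AM4 libraries differed little from one another. NIL-MP3 averaged 1828 ± 309 CPM, against 3303 ± 477 CPM for Takanari (SD, n = 6 each). The log2 difference was -0.86 ± 0.13 (SE; 95% interval -1.12 to -0.60), with an adjusted p of 2.36e-04 in limma. With counts summed per set, 3 sets against 3, the locus had an adjusted p of 0.0389 in edgeR's quasi-likelihood test. Its neighbour in identifier order, LOC_Os01g57966, had 43 molecules in NIL-MP3 and 61 in Takanari, a log2 difference of -0.55 ± 0.39 (SE) that did not pass (adjusted p = 0.866).

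LOC_Os05g22840 on chromosome 5 had 835, 425 and 374 CPM in NIL-MP3 AM4 and 804, 676 and 260 CPM in NIL-MP3 AM5. Takanari had 1397, 1984 and 1663 CPM in AM4 and 1409, 1865 and 1203 CPM in AM5. The lines did not overlap, although the NIL-MP3 set numbered 13 to 18 was the lowest and the set numbered 1 to 6 the highest of that line in both tissues. NIL-MP3 averaged 562 ± 241 CPM, against 1587 ± 302 CPM for Takanari (SD, n = 6 each). The log2 difference was -1.64 ± 0.25 (SE; 95% interval -2.17 to -1.12; adjusted p = 0.0101 in limma), a level 3.13-fold lower in NIL-MP3. The identifier before it, LOC_Os05g22830, had 123 molecules in NIL-MP3 and 122 in Takanari (log2 difference -0.03 ± 0.24, SE). Without Takanari AM5 replicate 1 the LOC_Os05g22840 adjusted p was 0.0531, and with counts summed per set it was 0.0864.

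LOC_Os04g16722 on chromosome 4 had 1034, 1030 and 1008 CPM in NIL-MP3 AM4 and 1286, 1856 and 693 CPM in NIL-MP3 AM5. In Takanari it had 1917, 2379 and 1853 CPM in AM4 and 2067, 2301 and 1736 CPM in AM5. The lines were apart in AM4 but overlapped in AM5, where NIL-MP3 library 7 lay above Takanari library 13. NIL-MP3 averaged 1151 ± 393 CPM, against 2042 ± 255 CPM for Takanari (SD, n = 6 each), and the log2 difference was -0.92 ± 0.17 (SE; adjusted p = 0.0101 in limma). The adjacent identifier LOC_Os04g16712, with 406 molecules in NIL-MP3 and 451 in Takanari, had a log2 difference of -0.23 ± 0.16 (SE, adjusted p = 0.866). The call on LOC_Os04g16722 was lost in the fit over all 35 libraries (log2 difference -0.93, adjusted p = 0.471) and without the Takanari set numbered 7 to 12 (-0.82, adjusted p = 0.113).

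**Figure D1:**
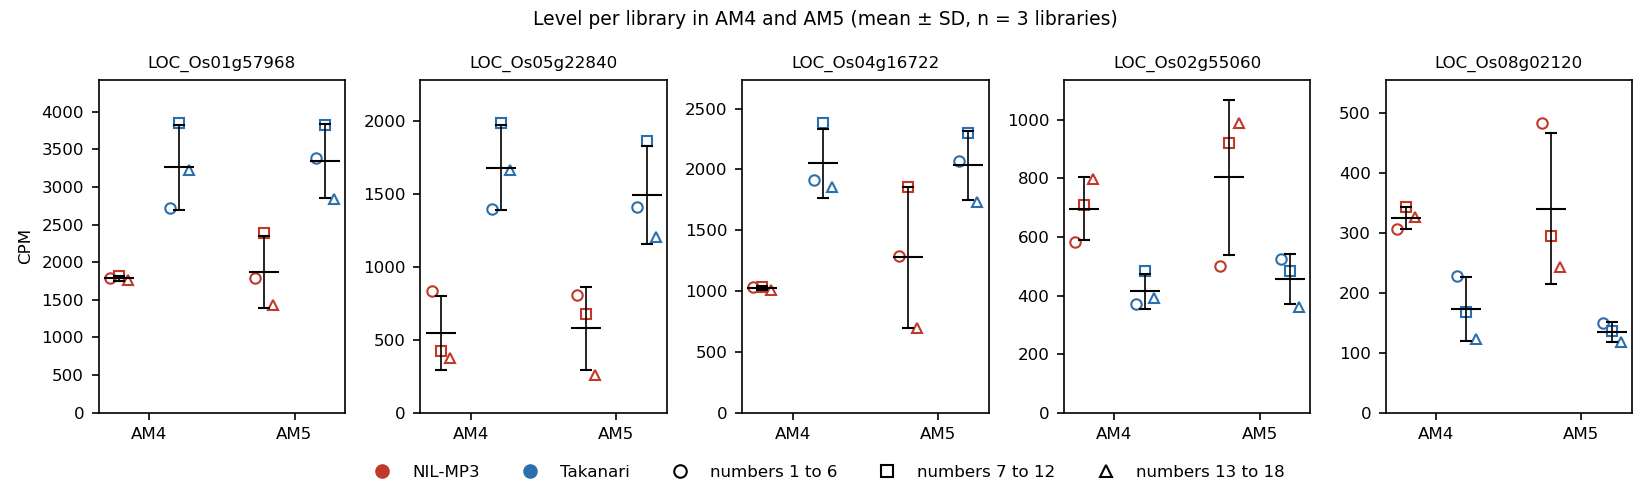
Level in CPM of 5 loci in each AM4 and AM5 library, NIL-MP3 (red) left of Takanari (blue), with symbols for the 3 sets of library numbers and bars for the mean ± SD of 3 libraries. The first 3 loci passed the test and lie lower in NIL-MP3, for example at 1828 against 3303 CPM for LOC_Os01g57968, and the last 2 have higher means in NIL-MP3 and did not pass.

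No locus passed as higher in NIL-MP3. The 2 of lowest p in that direction were LOC_Os02g55060 on chromosome 2 and LOC_Os08g02120 on chromosome 8. LOC_Os08g02120 had 306, 343 and 326 CPM in NIL-MP3 AM4 and 482, 295 and 243 CPM in NIL-MP3 AM5, against 229, 168 and 123 CPM in Takanari AM4 and 150, 137 and 117 CPM in Takanari AM5. Its lines did not overlap, and its log2 difference was 1.004 ± 0.24 (SE; 95% interval 0.52 to 1.49), with an adjusted p of 0.101 in limma. Its counts were low, 24 to 42 molecules per NIL-MP3 library and 8 to 29 per Takanari library.

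LOC_Os02g55060 had 582, 711 and 797 CPM in NIL-MP3 AM4 and 500, 922 and 988 CPM in NIL-MP3 AM5, against 371, 483 and 391 CPM in Takanari AM4 and 526.2, 485 and 362 CPM in Takanari AM5. NIL-MP3 AM5 library 1 lay below Takanari AM5 library 1, so the lines overlapped in AM5 and not in AM4. The log2 difference was 0.78 ± 0.18 (SE; adjusted p = 0.0979 in limma). Both loci passed when the set was left out of the fit, in limma (adjusted p = 0.0489 for each) and in edgeR's quasi-likelihood test (adjusted p = 0.0446 for each). That raised the count to 5 loci in either tool, of which 2 were higher in NIL-MP3. In DESeq2, also without the set, neither passed (adjusted p = 0.0749 for LOC_Os02g55060 and 0.0666 for LOC_Os08g02120), nor did they in edgeR on counts summed per set (0.304 and 0.312).

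**Figure D2:**
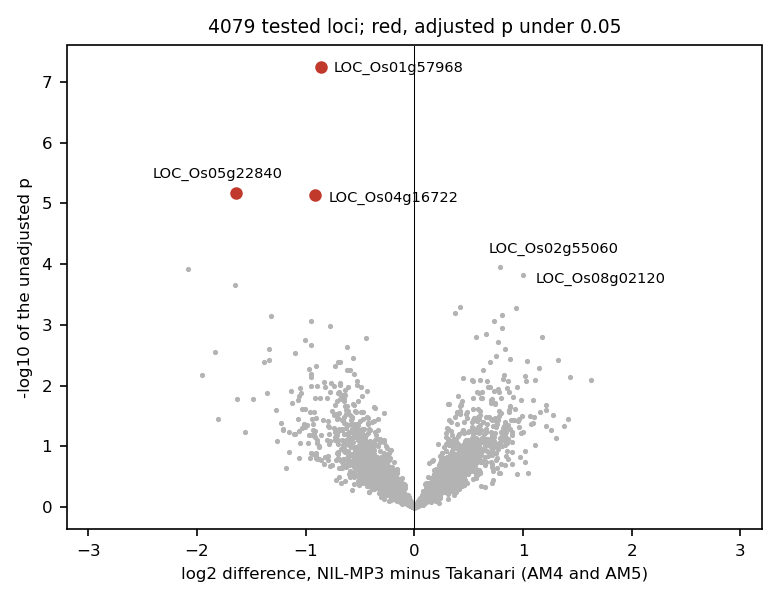
Log2 difference NIL-MP3 minus Takanari over AM4 and AM5 (x axis) against the -log10 of its unadjusted p (y axis) for 4079 loci. The 3 red loci passed an adjusted p of 0.05 and are lower in NIL-MP3, and the 2 labelled grey loci are those of lowest p among the loci higher in NIL-MP3.

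Most of the 4079 tested loci could be bounded over AM4 and AM5 together. The 95% interval of the line difference lay within 1 log2 unit of 0 in either direction at 2661 loci (65.2%), and 70 loci (1.72%) had an estimate beyond 1. The precision followed the level. The interval was within those limits at 36.6% of the 1243 loci under 100 CPM, at 74.1% of the 2205 loci from 100 to 300 CPM, at 90% of the 528 loci from 300 to 1000 CPM and at 93.2% of the 103 loci above 1000 CPM. All 3 called loci were among those 103. In AM4 alone the interval lay within 1 log2 unit at 46.8% of tested loci, and in AM5 alone at 25.1%. The lines did not overlap at all, 6 libraries against 6, at 19 of 4079 loci (0.466%), 6 higher (0.147%) and 13 lower (0.319%) in NIL-MP3, and LOC_Os01g57968, LOC_Os05g22840 and LOC_Os08g02120 were among them.

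The comparison was then made in AM4 and AM5 apart. In AM4, 1 of 4079 loci (0.0245%) passed, LOC_Os01g57968, with 1788 ± 32.9 CPM for NIL-MP3 against 3261 ± 565 CPM for Takanari (SD, n = 3 each) and a log2 difference of -0.85 ± 0.17 (SE, adjusted p = 0.0408 in limma). With no adjustment 229 loci (5.61%) had a p below 0.05 in AM4. The call on LOC_Os01g57968 in AM4 passed in 12 of 23 other settings. It was lost in edgeR's quasi-likelihood test (adjusted p = 0.227), in DESeq2 (0.54), in limma without the set (0.058) and over all 35 libraries (0.0566), with upper quartile scaling (0.0863) and a minimum count of 20 (0.189), and without NIL-MP3 AM4 replicate 2, 8 or 14 or Takanari AM4 replicate 8 or 14 (0.0691 to 0.992). The fit over all 35 libraries called LOC_Os05g22840 in AM4 instead, at -1.69 ± 0.29 (SE, adjusted p = 0.0171 in limma). In the 12 libraries that locus had -1.69 ± 0.34 in AM4 (SE, adjusted p = 0.273). DESeq2 also still called 1 locus in AM4, which was not LOC_Os01g57968. In AM5 no locus passed (0 of 4079, 0%), with 165 (4.05%) at an unadjusted p under 0.05. LOC_Os01g57968 again had the lowest p, at -0.87 ± 0.19 (SE, adjusted p = 0.1), with 1867 ± 482 CPM for NIL-MP3 against 3344 ± 494 CPM for Takanari (SD, n = 3 each). DESeq2, and edgeR without the set, also called 0 loci in AM5, with 130 and 199 at an unadjusted p under 0.05. Other settings did make calls in AM5, 11 loci with no filter on low counts, 4 without NIL-MP3 AM5 replicate 7, and 1 each with sample quality weights and with a block of 3 levels shared by the lines. Of the 4079 loci, 10.7% had lines without overlap in AM4 (5.2% higher and 5.47% lower in NIL-MP3) and 9.46% in AM5 (4.71% higher and 4.76% lower), and 37 (0.907%) had none in either with the same direction, so lack of overlap at 3 libraries against 3 is common.

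Among the loci higher in NIL-MP3 AM4, the lowest p belonged to LOC_Os02g57250 on chromosome 2 and LOC_Os03g35340 on chromosome 3. LOC_Os02g57250 had 283, 278 and 307 CPM in NIL-MP3 AM4 and 150, 117 and 123 CPM in Takanari AM4, without overlap, and its log2 difference there was 1.13 ± 0.31 (SE, adjusted p = 0.804 in limma). In AM5 it had 232, 357 and 191 CPM in NIL-MP3 and 113, 199 and 138 CPM in Takanari, where the lines overlapped. LOC_Os03g35340 had 146, 221 and 250 CPM in NIL-MP3 AM4 and 94.7, 73.2 and 78.1 CPM in Takanari AM4 (log2 difference 1.26 ± 0.39, SE, adjusted p = 0.873), but 53.6, 135 and 130 CPM in NIL-MP3 AM5 and 169, 162 and 63.9 CPM in Takanari AM5. Neither passed, and single libraries of LOC_Os03g35340 held 3 to 27 molecules in NIL-MP3 and 6 to 13 in Takanari.

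In AM5 the loci of lowest p, after LOC_Os01g57968, included LOC_Os10g25230 on chromosome 10, lower in NIL-MP3, and LOC_Os06g43600 and LOC_Os12g38140 on chromosomes 6 and 12, higher in NIL-MP3. LOC_Os10g25230 had 232, 86 and 34.7 CPM in NIL-MP3 AM5 and 282, 311 and 319 CPM in Takanari AM5, a difference of -2.21 ± 0.50 (SE, adjusted p = 0.153 in limma). The 3 Takanari libraries lay close together, and the NIL-MP3 libraries were spread below them. Without NIL-MP3 AM5 replicate 13 the difference was -1.21 ± 0.48 (adjusted p = 0.991), and without the set it was -1.57 in edgeR (adjusted p = 0.729) and -1.50 in DESeq2 (adjusted p = 1).

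LOC_Os06g43600 had 1483, 1831 and 1023 CPM in NIL-MP3 AM5 and 507, 659 and 650 CPM in Takanari AM5, with no overlap, and a difference of 1.16 ± 0.29 (SE, adjusted p = 0.33 in limma). In AM4 it had 758, 597 and 1219 CPM in NIL-MP3 and 694, 966 and 558 CPM in Takanari, where the lines overlapped. LOC_Os12g38140, an abundant locus, had 5985, 5396 and 6067 CPM in NIL-MP3 AM5 and 4754, 3719 and 3653 CPM in Takanari AM5, a difference of 0.55 ± 0.16 (SE, adjusted p = 0.486). Its AM4 values were 3348, 3196 and 4320 CPM in NIL-MP3 and 2911, 2950 and 2846 CPM in Takanari, so the lines did not overlap in either tissue, and both lines had more in AM5 than in AM4.

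Whether the line difference itself changed between AM5 and AM4 was tested as an interaction, which compares the tissues within sets. No locus passed (0 of 4079, 0%), 136 (3.33%) had an unadjusted p under 0.05, and the smallest adjusted p was 0.209. DESeq2, and edgeR without the set, also called 0 loci, with 56 and 102 at an unadjusted p under 0.05. The standard errors were wide, with a median of 0.578 on the log2 scale against 0.314 for the mean over both tissues, so the interaction was bounded within 1 log2 unit at only 546 loci (13.4%).

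LOC_Os02g48770 on chromosome 2 had the lowest p of the interaction. It had 207, 114 and 163 CPM in NIL-MP3 AM4 and 947, 565 and 381 CPM in NIL-MP3 AM5, while Takanari had 323, 241 and 312 CPM in AM4 and 263, 299 and 277 CPM in AM5. NIL-MP3 lay below Takanari in AM4 and above it in AM5, with no overlap in either, as at 16 of 4079 loci (0.392%), and Takanari differed little between the tissues. The line difference was 0.96 ± 0.30 in AM5 and -0.86 ± 0.32 in AM4, and the change between them was 1.83 ± 0.41 (SE, adjusted p = 0.209 in limma). Without NIL-MP3 AM5 replicate 13 it was 2.19 ± 0.43 and passed (adjusted p = 0.00976), and without NIL-MP3 AM5 replicate 1, the library of 947 CPM, it was 1.56 ± 0.42 (adjusted p = 1).

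The other loci named by the rule were less separated. LOC_Os04g43150 on chromosome 4 had 123, 221 and 250 CPM in NIL-MP3 AM4 and 53.6, 135 and 52 CPM in NIL-MP3 AM5, against 174, 146 and 156 CPM in Takanari AM4 and 320, 211 and 256 CPM in Takanari AM5. The lines were apart in AM5 and overlapped in AM4 (interaction -2.05 ± 0.55, SE, adjusted p = 0.911 in limma). LOC_Os02g34190 on chromosome 2 had 99.6, 131 and 115 CPM in NIL-MP3 AM4 and 125, 73.8 and 26 CPM in NIL-MP3 AM5, against 55.2, 51.2 and 44.6 CPM in Takanari AM4 and 132, 112 and 138 CPM in Takanari AM5. Its lines were apart in AM4 and overlapped in AM5. Its interaction was -2.53 ± 0.71 (SE, adjusted p = 0.911), from 3 to 16 molecules per NIL-MP3 library and 4 to 13 per Takanari library, and without NIL-MP3 AM5 replicate 13 it was -1.58 ± 0.73 (adjusted p = 0.999). LOC_Os03g16670 on chromosome 3 ranged from 32.7 to 191 CPM in NIL-MP3 and from 95.8 to 225.5 CPM in Takanari, overlapped in both tissues, and had an interaction of 1.62 ± 0.58 (SE, adjusted p = 0.998).

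**Figure D3:**
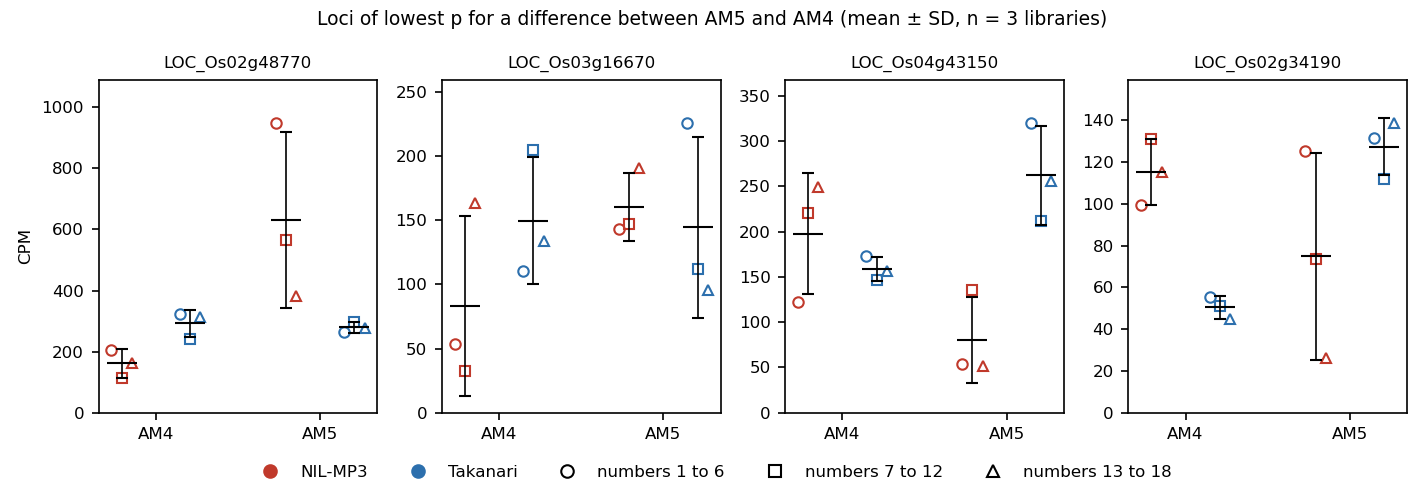
Level in CPM per library of the 2 loci of lowest p in each direction for a change of the line difference between AM5 and AM4, NIL-MP3 (red) left of Takanari (blue), with bars for the mean ± SD of 3 libraries. LOC_Os02g48770 reaches 947 CPM in NIL-MP3 AM5, where Takanari stays between 263 and 299 CPM, and none of the 4 passed the test.

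The line difference of AM4 and AM5 was set against that of AM1 and AM2 in a fit over all 35 libraries and 6943 loci. No locus passed for a change between them (0 of 6943, 0%), with 415 (5.98%) at an unadjusted p under 0.05 and a smallest adjusted p of 0.623. EdgeR without the set also called 0 loci, with 291 at an unadjusted p under 0.05. The 3 called loci, chosen from AM4 and AM5, also had negative line differences in each of AM1, AM2, AM3 and SAM. In AM1 and AM2 these were -0.73 ± 0.17 for LOC_Os01g57968, -1.07 ± 0.27 for LOC_Os05g22840 and -0.89 ± 0.29 for LOC_Os04g16722 (SE), which did not pass over all loci there (adjusted p = 0.488, 0.488 and 0.508). The change from AM1 and AM2 to AM4 and AM5 was -0.15 ± 0.20 for LOC_Os01g57968, -0.58 ± 0.31 for LOC_Os05g22840 and -0.04 ± 0.34 for LOC_Os04g16722 (SE). The 95% interval of that change was -0.55 to 0.25, -1.22 to 0.06 and -0.74 to 0.66 in the same order, and none of the 3 passed (adjusted p = 0.941, 0.82 and 0.992).

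LOC_Os02g55060 had a line difference of 0.71 ± 0.21 (SE) in AM1 and AM2, close to its estimate in AM4 and AM5, which did not pass there (adjusted p = 0.488 in limma). For LOC_Os08g02120 the line difference in AM1 and AM2 was 0.03 ± 0.19, and the change to AM4 and AM5 was 0.99 ± 0.29 (SE; 95% interval 0.42 to 1.56), which ranked 5th of 6943 loci by p but did not pass (adjusted p = 0.623 in limma). In these CPM over 6943 loci it averaged 378 ± 71.7 in NIL-MP3 AM1 and 299 ± 110 in NIL-MP3 AM5, against 444 ± 132 in Takanari AM1 and 120 ± 15.5 in Takanari AM5 (SD, n = 3 each).

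**Figure D4:**
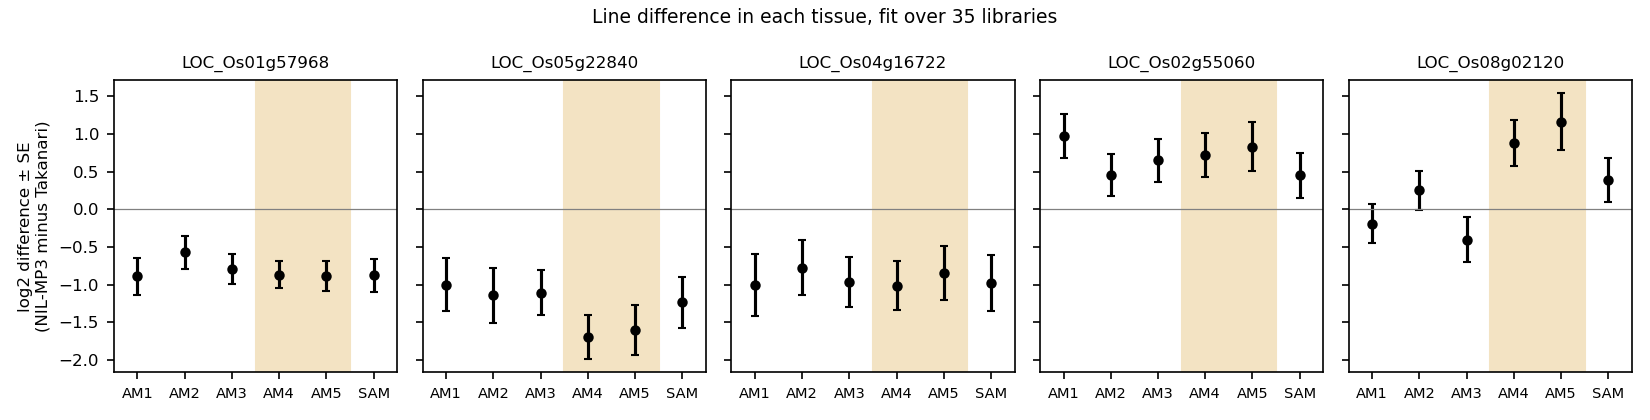
Log2 difference NIL-MP3 minus Takanari with its SE (y axis) in each of the 6 tissue labels (x axis) for 5 loci, from the fit over 35 libraries, with AM4 and AM5 shaded. The first 3 loci, chosen from AM4 and AM5, are below 0 in every tissue. LOC_Os08g02120 lies above 0.8 only in the shaded tissues, a change that did not pass the test.

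A score was built from loci chosen by their change over AM1 to AM3, without AM4 and AM5. In the AM1 to AM3 libraries of both lines, 394 of 5052 loci had a slope past an adjusted p of 0.05 in limma, 170 rising and 224 falling. The score is the mean log2 CPM of the 200 rising loci of lowest p minus that of the 200 falling loci of lowest p. Of these, 370 had passed the slope test, and the remainder were loci with a positive slope that had not passed, since 170 had passed as rising. In AM4 it was 0.557, 0.632 and 0.831 in NIL-MP3 libraries 2, 8 and 14 and 0.842, 0.837 and 1.01 in Takanari libraries 2, 8 and 14, with every NIL-MP3 library below every Takanari library. In AM5 the libraries overlapped, with 0.653, 0.509 and 0.746 in NIL-MP3 libraries 1, 7 and 13 and 0.918, 0.837 and 0.589 in Takanari libraries 1, 7 and 13.

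The set means of the score did not overlap, at 0.605, 0.571 and 0.788 in NIL-MP3 and 0.88, 0.837 and 0.798 in Takanari for the sets from number 1, 7 and 13. NIL-MP3 averaged 0.655 ± 0.117, against 0.838 ± 0.041 for Takanari (SD, n = 3 sets each), a difference of -0.184 (exact permutation test over sets, two-sided, p = 0.1). That is the smallest p that 3 sets against 3 allow, so the test cannot pass 0.05, and it was 0.2 after adjustment over 6 score tests. The difference was -0.222 in AM4 (exact p = 0.1, adjusted p = 0.2) and -0.145 in AM5 (exact p = 0.3, adjusted p = 0.45). The mean of the rising loci alone differed by -0.17 (exact p = 0.1, adjusted p = 0.2), while the falling loci contributed -0.0139 (exact p = 0.9, adjusted p = 0.9). Of the AM3 libraries, which had helped to choose the loci, those of NIL-MP3 had 0.567, 0.827 and 1.13 and those of Takanari 0.532, 1.1 and 0.654 in the sets from number 1, 7 and 13. The NIL-MP3 score was lower in AM4 than in AM3 in all 3 sets, and the Takanari score was higher in the sets from number 1 and 13 and lower in the set from number 7. The mean score in AM3, AM4 and AM5 was 0.84, 0.673 and 0.636 in NIL-MP3 and 0.76, 0.895 and 0.781 in Takanari. It thus did not rise steadily past AM3, but the AM3 libraries had helped to choose the loci and those of AM4 and AM5 had not. Whether a lower score in AM4 or AM5 goes with an earlier place in the series was not tested, and the score is not read here as such a place. The step from AM4 to AM5 within a set ran from -0.124 to 0.0967 in NIL-MP3 and from -0.418 to 0.0769 in Takanari, and the lines differed in it by 0.0767 (exact p = 0.8, adjusted p = 0.9).

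Of the 200 rising loci, 158 had a negative and 42 a positive line difference over AM4 and AM5 in the fit over 35 libraries, with a median of -0.169 log2, against 3571 negative of all 6943 loci and a median of -0.0139. The same 200 loci were balanced between the lines in AM1 and AM2, with 101 negative and a median of -0.00508, but those libraries had chosen the loci. The 200 falling loci had 99 negative and a median of 0.0193 over AM4 and AM5, and 146 negative and a median of -0.159 over AM1 and AM2. Of the 3 loci called in the 12 libraries (0.0735% of the 4079 tested there), LOC_Os01g57968 and LOC_Os04g16722 were among the 200 rising loci, of which 192 were tested there. All 3 called loci were also among the 103 loci above 1000 CPM, where precision was highest. A link between the calls and the rising loci was not tested. From AM1 and AM2 to AM4 and AM5 the score went up by 1.43, 1.04 and 0.96 in the NIL-MP3 sets from number 1, 7 and 13 and by 1.57, 1.44 and 1.48 in those of Takanari, which is given without a test because AM1 and AM2 had chosen the loci.

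**Figure D5:**
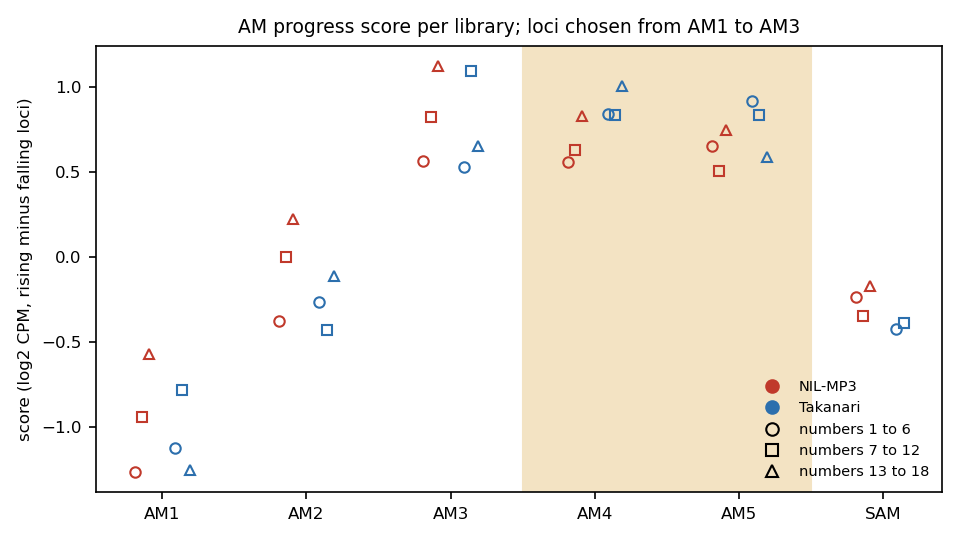
Score of each library (y axis, difference of mean log2 CPM between 200 rising and 200 falling loci) by tissue label (x axis), NIL-MP3 (red) left of Takanari (blue), with symbols for the sets and AM4 and AM5 shaded. In AM4 the NIL-MP3 libraries lie between 0.557 and 0.831 and the Takanari libraries between 0.837 and 1.01, and in AM5 they overlap.

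Chromosome 3, which carries MP3, held none of the called loci (0 of 634 tested), beside 3 of all 4079 (0.0735%). At that share few or no calls fall on a single chromosome, so the 0 says little about chromosome 3. At an unadjusted p under 0.05 it had 52 loci (8.2%), 28 higher and 24 lower in NIL-MP3, against 215 of 3445 (6.24%) on the other chromosomes. It had the highest share of the 12 chromosomes, which ranged from 3.38% on chromosome 11 to 8.2%. Its median line difference was -0.0191 and its median absolute difference 0.236, against -0.00117 and 0.223 elsewhere. Within chromosome 3, the median of loci grouped by 10000 identifier numbers ran from -0.103 to 0.0763, and the smallest adjusted p was 0.13, so no stretch of identifiers had a locus past the threshold. These groups held 28 to 141 tested loci, so a difference limited to a shorter stretch could be averaged out of their medians. At 2 of the 634 loci the lines did not overlap, 6 libraries against 6, beside 19 of all 4079 (0.466%). Both were lower in NIL-MP3, LOC_Os03g49710 (log2 difference -1.34, adjusted p = 0.443 in limma) and LOC_Os03g14610 (-0.72, adjusted p = 0.69). No test of enrichment was made.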

How the data were processed

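The deposited values were UMI counts, whole numbers of molecules per locus from CEL-Seq2 libraries (100 pg of RNA each, per the labels' protocols), not normalized by the authors. The submitters' processing notes list Bowtie2 and Subread 2.1, with no role or order. Build, annotation, strand setting and the treatment of reads that fit several loci: not given in the sources used here. Takanari SAM library 18 was left out by the submitters.

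Loci passing edgeR's filterByExpr (minimum count 10, 4 groups) in the 12 libraries were tested, 4079 of 21437 with a count; they held 72.2% to 75.7% of each library. The main test was limma 3.58.1 through voomLmFit of edgeR 4.0.16 (R 4.3.3), with TMM scaling (factors 0.908 to 1.05), AM label as covariate, set of library numbers within line as a random effect (consensus correlation 0.13) and robust variances. P-values were adjusted by Benjamini-Hochberg over all tested loci, two-sided, at 0.05. The single tissues and the interaction used 1 mean per group (correlation 0.137). edgeR's quasi-likelihood test cannot hold this random effect, so it and DESeq2 1.42.0 were alternatives. AM5 and AM4 libraries of a set deviated from their group means with r between 0.0801 and 0.264 across loci. Replicates of a group differed by more than counting noise (chi-square per degree of freedom 1.69 to 2.77). Whether each library is a separate plant is not in the labels. The p-values therefore reflect variation among libraries that could be technical.

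The named loci are the 2 of lowest p in each direction of the mean, of AM4, of AM5 and of the interaction, plus every locus called in the mean. The comparison, loci lists and tests were chosen with earlier results of these data known. The scripts were tested on simulated data. Intervals of log2 differences are 95%.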

Additional observations from a re-analysis of the deposited data

Results flagged for a closer look

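In 1 of 30 groups of 6 libraries examined (14 named loci and the score, in each line), a single library stood apart from the rest. Chance flags about 1 in 20 groups of like libraries, but each group here pooled AM4 and AM5 libraries. LOC_Os10g25230 in NIL-MP3 was highest in AM5 replicate 1, at 232.2 CPM from 13 molecules, where the other 5 NIL-MP3 libraries held 7.66 to 86 CPM from 1 to 7 molecules. That library had the lowest total of NIL-MP3. In both lines the locus was higher in AM5 than in AM4. It averaged 118 against 28 CPM in NIL-MP3 and 304 against 81.6 CPM in Takanari. How far the flag reflects the tissue was not tested.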

How the results depend on the processing

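Of 423 values of the named loci under other settings, 374 stayed on their side of the threshold, 15 lost and 34 gained a call, and 0 reversed. The loci were named for low p in these same libraries, so the 0 reversals carry little weight. Most of the values belonged to results not called in the main fit, where staying meant still not called. The losses fell on called results. LOC_Os05g22840 and LOC_Os04g16722 each kept the call for the mean in 28 of 30 settings, and LOC_Os01g57968 kept that for AM4 in 12 of 23. For the mean over AM4 and AM5 the main count of 3 became 5 with no replicate block and 5 in edgeR (2 higher and 3 lower each), 6 with a replicate block of 3 levels shared by the lines (2 higher, 4 lower), 9 with no filter (2 higher, 7 lower), 5 without both AM5 libraries numbered 1, a setting chosen after seeing the data, and 2 to 11 with 1 library or set left out. It was 11 without the NIL-MP3 set from number 1 (6 higher, 5 lower), 9 without the Takanari set from number 1 (4 higher, 5 lower), 6 without NIL-MP3 AM4 replicate 2 and 5 without Takanari AM4 replicate 2. With counts summed per set, edgeR's quasi-likelihood test called LOC_Os01g57968 and LOC_Os04g16722 alone. LOC_Os01g57968 passed in all 30 of its other settings for the mean. For AM4 the count of 1 became 0 with no replicate block, in edgeR, with upper quartile scaling and at a minimum count of 20, 2 with the shared replicate block, 4 with no filter, 4 without both AM5 libraries numbered 1, and 0 to 4 with 1 library left out (0 without replicate 8 or 14 of AM4 in either line, 3 without NIL-MP3 AM5 replicate 1 or 7, 4 without NIL-MP3 AM5 replicate 13). For AM5 the count of 0 became 1 with the shared replicate block, 11 with no filter, 1 with sample quality weights, and 0 to 4 with 1 library left out (4 without NIL-MP3 AM5 replicate 7, 2 without AM4 replicate 2 or 14 of either line or NIL-MP3 AM5 replicate 13, 1 without Takanari AM5 replicate 13). The interaction stayed at 0, except for 1 locus without NIL-MP3 AM5 replicate 13, and the contrast with AM1 and AM2 at 0. The score difference ran from -0.25 to -0.141 with 1 set left out, and was -0.217 with 100 and -0.136 with 400 loci a direction (exact permutation p = 0.1 and 0.4) and -0.193 with a prior count of 0.5. The causes were not tested. The numbers are not stated to pair the lines: same-numbered libraries of both lines deviated with r between -0.0249 and 0.134. With no filter, 18613 loci were tested, most at a few molecules. Leaving out a library that leaves 2 in a group assumes the shared spread. Depth limits loci under 100 CPM.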

Other observations

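LOC_Os07g11150 on chromosome 7, chosen after its values were seen, was too low for the filter in the 12 libraries and was called in the fit over 35 libraries (adjusted p = 0.0343 in limma). No NIL-MP3 library held more than 1 molecule of it, so it passed the filter of that fit only through Takanari libraries. The call is therefore no independent support for a line difference, and the counts are given as description. It had 2 molecules in the 6 NIL-MP3 libraries of AM4 and AM5, against 43 in the 6 of Takanari, where each library had 3 to 13. In the other tissues it had 1 molecule in 12 NIL-MP3 libraries and 37 in 11 Takanari libraries, so the line difference was not limited to AM4 and AM5.

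A single locus of the whole table was seen in every AM4 and AM5 library of one line and in none of the other. LOC_Os05g50360 on chromosome 5 had 12 molecules in NIL-MP3, 1 to 4 per library, and 0 in Takanari, where a count of 0 allows up to 3. In the other tissues Takanari had 24 molecules of it, in 8 of 11 libraries, and NIL-MP3 had 14.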
